A study of Rattus norvegicus with 10 samples.

Results

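The endogenous opioid system of the maternal hypothalamus was described in the arcuate nucleus (ARC) of 10 Wistar rat dams at parturition, of which 5 were fed the 5X-FA diet and 5 the 5X-MTHF diet during pregnancy. The rule named 6 genes, the peptide precursors *Penk* and *Pnoc* and the receptors *Oprm1*, *Oprk1*, *Oprd1* and *Oprl1*, and took the rows of the table that carry these names. A row was found for 5 of them among 12828 genes, and *Oprd1*, the delta opioid receptor, was not analysed here. Both diets supplied folate at 5 times the recommended level, as folic acid in 5X-FA and as [6*S*]-5-methyltetrahydrofolic acid in 5X-MTHF, in an AIN-93G base, to first-time pregnant females. According to the methods, all dams were killed after a daytime fast of several hours. The age of the dams is not given in the sources used here. The ARC was cut free hand from frozen brain on dry ice, with the third ventricle as the landmark, so that the sample is a small block of tissue rather than a sorted cell type.

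Opioid peptides are cut from large precursor proteins in the secretory vesicles of neurons and act on receptors that couple to inhibitory G proteins, which lower cyclic AMP, open potassium channels and close calcium channels. *Penk* encodes proenkephalin, the source of the enkephalins, which act on the delta and mu receptors (*Oprd1* and *Oprm1*). *Pnoc* encodes prepronociceptin, and its peptide nociceptin acts on *Oprl1* and not on the classical opioid receptors. Dynorphins from *Pdyn* act mainly on the kappa receptor *Oprk1*, and beta-endorphin from *Pomc* acts on the mu receptor. In the hypothalamus of the mother these peptides are known for their part in feeding and in the control of oxytocin and prolactin release.

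The value at hand for each gene is the authors' average log2 CPM over the libraries of the study. CPM is a gene's read count scaled to the size of the library (counts per 1000000 reads). Whether the average was taken before or after the log2 is not given in the sources used here. The average log2 CPM is 1 value per gene over both diets, with no SD and no value per dam. It counts reads and does not divide by gene length, so that a place in its order is a place in the share of reads and not in the number of transcripts. Over the table it ran from -2.07 to 14.56 with a median of 4.94. The table is labelled as filtered, so that all genes means here the genes that were kept. Genes removed by the filter enter no percentile, rank or median. The columns of numbers per library could not be matched to a dam or a diet by their names. No value in either diet, no difference between 5X-MTHF and 5X-FA dams and no *p*-value is therefore given for any gene, and the depth of the libraries is unknown from the values used.

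*Penk* took the most reads of the 5 genes. Its average log2 CPM was 7.68, or 205 CPM, which is above that of 93.3% of all genes in the table (rank 863). *Oprl1* followed at 6.05, or 66.5 CPM, above 72.7% of all genes. The other three genes lay below the median of the table. *Oprk1* stood at 4.32 (20.0 CPM, percentile 37.2), *Pnoc* at 3.66 (12.7 CPM, percentile 25.1) and *Oprm1* at 3.62 (12.3 CPM, percentile 24.5). In bulk tissue, many cells with little of a transcript and few cells with much of it cannot be told apart.

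**Figure D1:**
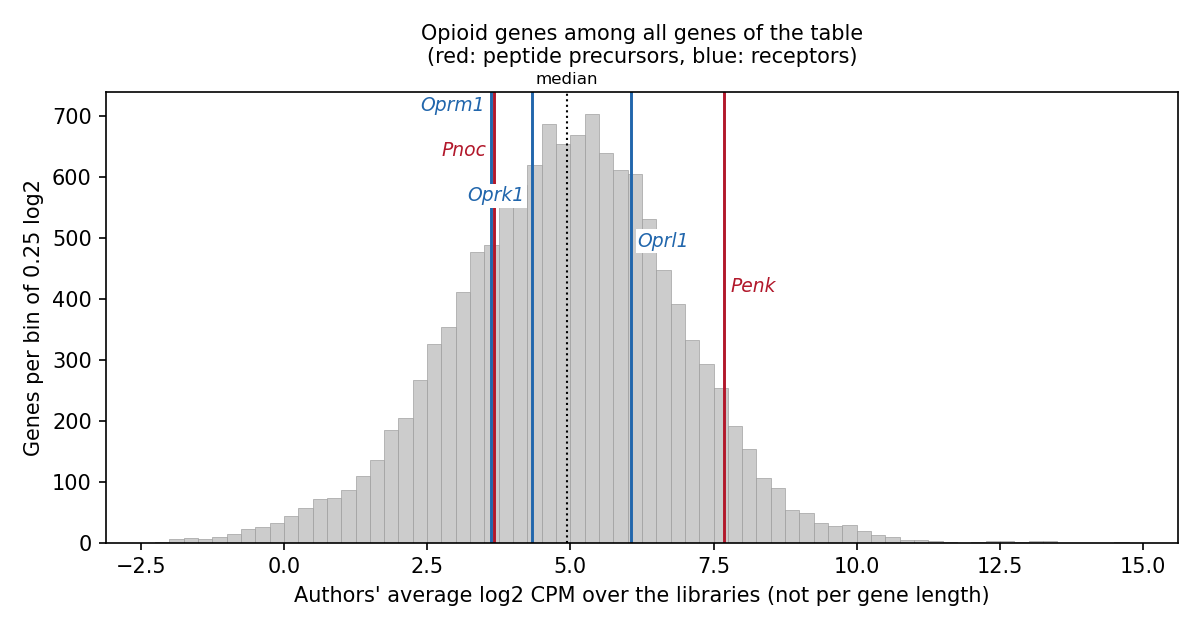
Distribution of the authors' average log2 CPM (x axis, not per gene length) over all 12828 genes, as the number of genes in bins of 0.25 (y axis), with the median of all genes as a dotted line. Red lines mark the peptide precursors and blue lines the receptors: *Penk* at 7.68 and *Oprl1* at 6.05 lie to the right of the median of 4.94, and *Oprk1*, *Pnoc* and *Oprm1* lie to its left.

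The peptide precursors were far apart on this scale. The average log2 CPM of *Penk* exceeded that of *Pnoc* by 4.02. The analysed receptors covered a range of 2.43, from *Oprm1* to *Oprl1*. Neighbours in the order were separated by 1.62 (*Penk* and *Oprl1*), 1.73 (*Oprl1* and *Oprk1*), 0.66 (*Oprk1* and *Pnoc*) and 0.04 (*Pnoc* and *Oprm1*). None of these steps was tested, since the columns per library, which match no dam by name, were not used. The last step is the narrowest, and *Pnoc* and *Oprm1* have nearly the same share of reads.

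Gene length differs widely among the 5 genes. The only length the table holds is the span of the gene in the genome, introns included, which is 5.42 kb for *Penk*, 5.93 kb for *Oprl1*, 15.6 kb for *Oprk1*, 28.1 kb for *Pnoc* and 250.1 kb for *Oprm1*. Per kb of span, the average log2 level was 5.24 for *Penk*, 3.49 for *Oprl1*, 0.36 for *Oprk1*, -1.15 for *Pnoc* and -4.35 for *Oprm1*. The order of the genes is the same on both scales. Dividing by span could not change it, since the span rises from gene to gene as the average log2 CPM falls. On both scales *Penk* and *Oprl1* lie above the median of the table and the other three below it (0.61 is the median per kb of span). The span is a poor stand-in for the length of the mature transcript where introns are long, as in *Oprm1*, whose place among all genes moved from percentile 24.5 to percentile 1.96.

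For each gene, the 2 genes next above and the 2 next below it in average log2 CPM were taken as those with the most similar share of reads, and all 20 lay within 0.0029 of their opioid gene. Around *Penk* these were *Cmip*, *Taf3*, *Col4a3bp* and *Cct6a*. Around *Oprl1* they were *Smarcd3*, *Qrich1*, *Ubxn1* and *Amot*, and around *Oprk1* they were *Rnpc3*, *Ston2*, *Hopx* and *Ccn2*. *Pnoc* lay beside *Otp*, a transcription factor of developing hypothalamic neurons, and beside *Tmem39b*, *Yif1a* and the gene listed as AABR07030603.1, and *Oprm1* lay among *Map3k2*, *Mrpl32*, *Ddx31* and *Scml4*. The likeness is in 1 average per gene and not in a pattern over dams.

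The rest of the opioid pathway was described with a list of 48 symbols by role, of which 42 have a row. Of these, 29 lay above the median of the table in average log2 CPM, and their own median was 5.77, against 4.94 over all genes. Per kb of gene span, 22 of the 42 lay above the median, so that the first count depends on the scale. Values below are average log2 CPM, which is not per length, and set genes side by side by their reads. The other opioid peptide precursors were *Pdyn* at 6.61 (97.4 CPM) and *Pomc* at 4.67 (25.4 CPM). Per kb of span they were at 2.98 and 2.08. On both scales the order of the 4 opioid precursor genes was *Penk*, *Pdyn*, *Pomc* and *Pnoc*, and whether neighbours in it differ was not tested. *Pomc* is a defining gene of the ARC, and its share of reads was above that of 44.2% of all genes.

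The enzymes that turn precursors into active peptides included the highest share of reads in the pathway list. Of 7 listed, 6 have a row, and 5 of these lay above the median of the table (4 per kb of span). *Cpe*, carboxypeptidase E, which trims basic residues from the cut peptides, had an average log2 CPM of 10.74, above 99.8% of all genes. *Pam*, which amidates peptides at their C-terminus, followed at 8.89, and *Pcsk2*, the convertase that cuts proenkephalin and other precursors, stood at 7.81. *Cpz* was the lowest of this group at 2.45. These enzymes serve many neuropeptides besides the opioids.

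Of 8 listed peptidases that break opioid peptides down, 6 have a row, with 3 above the median (4 per kb of span). The highest were the endothelin-converting enzymes *Ece2* at 6.60 and *Ece1* at 6.10. *Mme*, neprilysin, a classical enkephalin-degrading enzyme, was at 3.49, above 22.6% of all genes, and *Ace*, another enzyme that cleaves enkephalins, was at 4.77.

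Downstream of the receptors, each of the 5 G protein alpha subunits of the inhibitory class lay above the median (4 per kb of span). *Gnao1* led at 8.42 and *Gnai2* followed at 8.16, and *Gnaz* was the lowest at 5.97. Among the genes of receptor desensitization, *Grk2*, a kinase that phosphorylates active receptors, stood at 7.50 and *Arrb1*, beta-arrestin 1, at 6.27, with 4 of the 6 genes above the median (3 per kb of span). All 10 listed effector genes have a row, and 7 lay above the median in average log2 CPM but only 1 per kb of span. The highest were *Adcy5*, an adenylyl cyclase inhibited through these G proteins, at 7.64, and *Cacna1b*, the N-type calcium channel, at 7.42. The subunits of the G protein-gated potassium channels were *Kcnj9* at 5.42, *Kcnj3* at 4.78, *Kcnj6* at 4.74 and *Kcnj5* at 3.29. Outside the receptor family, *Ogfr*, the opioid growth factor receptor, was at 5.14 and its relative *Ogfrl1* at 5.24.

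**Figure D2:**
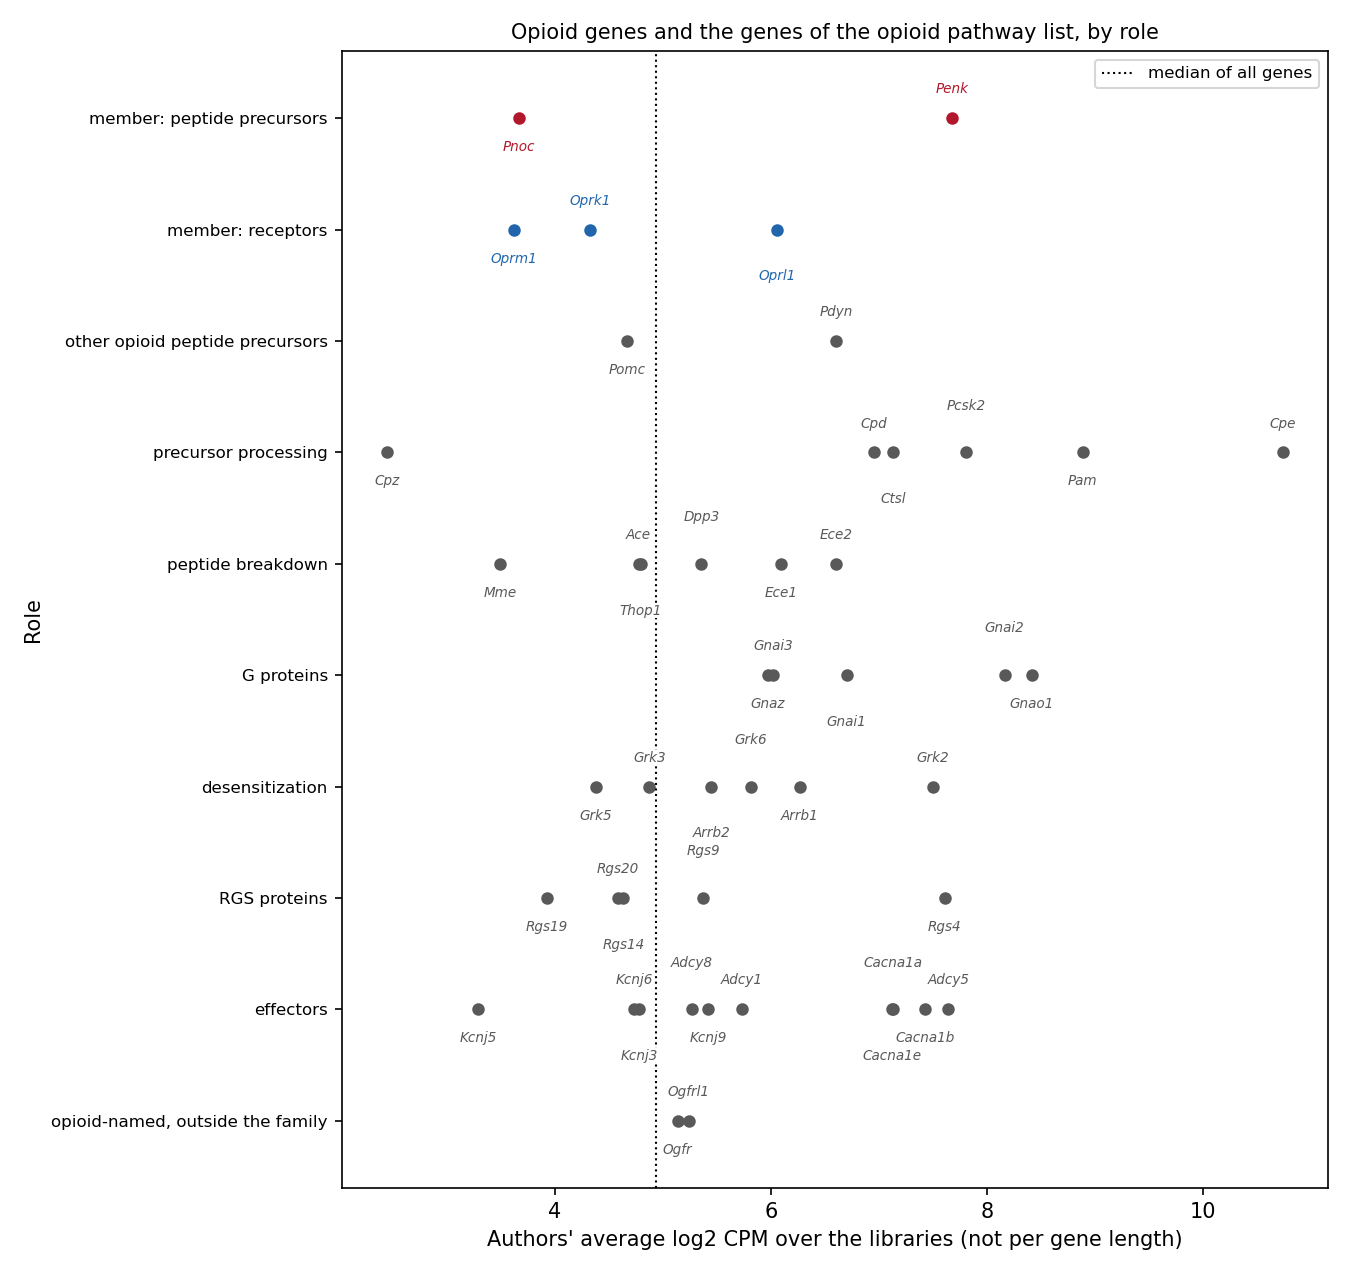
Average log2 CPM (x axis, not per gene length) of the 5 opioid genes and of the 42 genes of the pathway list that have a row, by role (y axis). Each point is 1 gene and the authors' 1 value over the libraries, and the dotted line is the median of all genes, 4.94. *Cpe* at 10.74 is the point farthest to the right and *Cpz* at 2.45 the one farthest to the left.

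RGS proteins speed the shut-off of G proteins, and the table holds 16 numbered *Rgs* genes. Of the 5 fixed in the pathway list, *Rgs4* was the highest at 7.61, followed by *Rgs9* at 5.37, and 2 of the 5 lay above the median (3 per kb of span). The positions of the receptor genes in Rnor_6.0 place each of the 3 analysed receptors near a gene of the RZ group of RGS proteins (*Rgs17*, *Rgs19* and *Rgs20*). This was looked for after the table had been read. *Oprl1* (ENSRNOG00000016768) lies on chromosome 3 from 177225737 to 177231663, and *Rgs19* lies on the same chromosome from 177196687 to 177201525, a gap of 24.2 kb. *Oprk1* (ENSRNOG00000007647) lies on chromosome 5 from 13744658 to 13760305, with *Rgs20* at a distance of 655.3 kb. *Oprm1* (ENSRNOG00000018191) lies on chromosome 1 from 43454803 to 43704948, with *Rgs17* at a distance of 867.1 kb. Of the 16 *Rgs* genes, 5 are on the chromosome of an analysed receptor and 3, those named, are within 1 Mb of it. In the gene order of RefSeq on the later assembly GRCr8, 1 protein-coding gene stands between the members of each of these pairs.

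The paired genes were set side by side on both scales. The average log2 CPM was 6.05 for *Oprl1* and 3.93 for *Rgs19*, 3.62 for *Oprm1* and 6.16 for *Rgs17*, and 4.32 for *Oprk1* and 4.58 for *Rgs20*. Per kb of span, *Rgs19* was at 1.65, *Rgs17* at -0.41 and *Rgs20* at -1.72. On both scales *Oprl1* was higher than *Rgs19* and *Oprm1* lower than *Rgs17*, whereas the order of *Oprk1* and *Rgs20* turned with the scale. Within 1 Mb of *Oprk1*, all 6 other genes of the table had a higher average log2 CPM than the receptor (5 per kb of span), and within 1 Mb of *Oprm1*, 6 of 8 did (8 per kb of span). Around *Oprl1*, 10 of 28 did (4 per kb of span). Over all genes of the table, the percentile was 37.2 for *Oprk1*, 24.5 for *Oprm1* and 72.7 for *Oprl1* (45.9, 1.96 and 89.5 per kb of span). Most genes of the table are thus also higher than *Oprk1* and *Oprm1*. Whether these windows differ from the whole table was not tested.

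**Figure D3:**
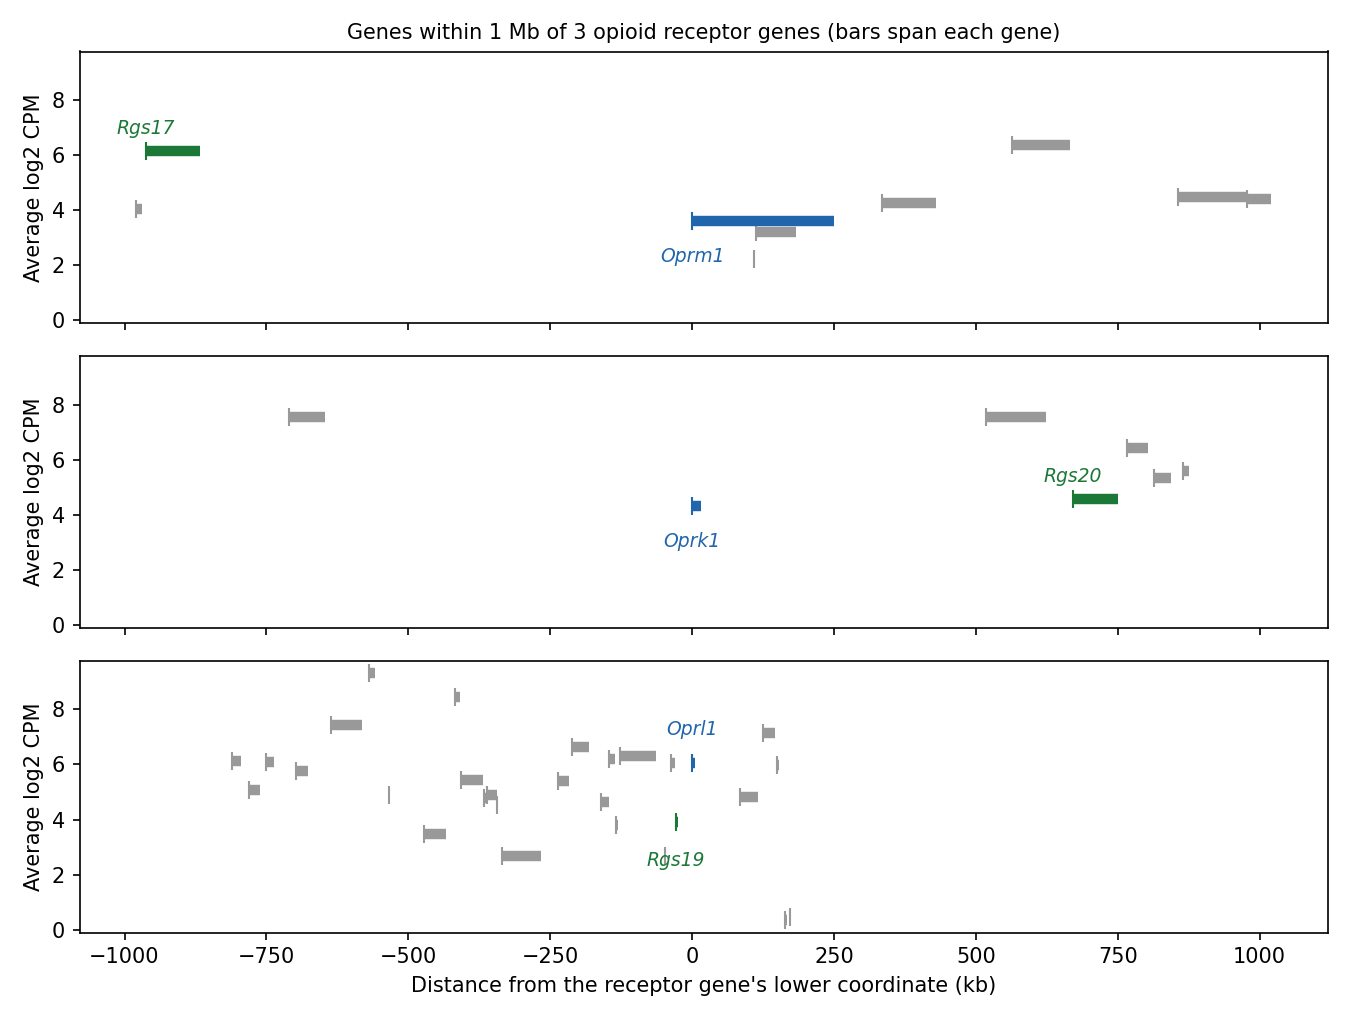
Genes of the table within 1 Mb of *Oprm1* (top), *Oprk1* (middle) and *Oprl1* (bottom), as bars that span each gene at its distance in kb from the receptor gene's lower coordinate (x axis) and at its average log2 CPM (y axis, not per gene length). The receptor is blue, the nearest *Rgs* gene green and all others grey: *Rgs19* lies 24.2 kb from *Oprl1*, and *Rgs20* and *Rgs17* lie 655.3 and 867.1 kb from *Oprk1* and *Oprm1*.

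The precursor genes lie apart from each other. *Penk* (ENSRNOG00000008943) lies on chromosome 5 from 17056419 to 17061837, 3.30 Mb from *Oprk1*, and 0 of the 7 other genes of the table within 1 Mb had a higher average log2 CPM (1 per kb of span). *Pnoc* (ENSRNOG00000014231) lies on chromosome 15 from 48805228 to 48833285, beside *Zfp395* at a distance of 2.08 kb, and 7 of the 8 genes within 1 Mb had a higher average log2 CPM (4 per kb of span). Over all genes of the table, the percentile was 93.3 for *Penk* and 25.1 for *Pnoc* (96.9 and 22.5 per kb of span). Whether the windows around these 2 genes differ from the whole table was not tested. All 5 opioid genes are protein-coding. The span of *Oprm1* overlaps 2 other genes of the table, *Ipcef1* at an average log2 CPM of 3.21 and the antisense gene listed as AABR07001432.1 at 2.22. The methods describe the libraries as strand specific. The strand setting of the read counting is not given in the sources used here, and whether reads of the overlapping antisense gene enter the value of *Oprm1* was not tested.

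The tissue was checked against marker genes. Of 16 markers of the ARC, 14 have a row, with average log2 CPM values from 0.08 (*Kiss1*, kisspeptin) to 6.35 (*Sst*, somatostatin). Of these, 4 lay above the median of the table (7 per kb of span), and the median of the list was 4.19. *Cartpt* was at 6.02, *Th* at 5.20 and *Esr1* at 4.49, whereas *Tbx3* was at 2.45, *Prlr* at 2.21, *Agrp* at 1.42 and *Ghrh* at 1.02. *Npy* and *Nr5a2* were not analysed here. Genes listed as markers of other regions were present as well, and whether they are made in those regions alone was not tested. *Pmch* and *Hcrt* of the lateral hypothalamus were at 9.24 and 5.68. Of the 5 markers of the paraventricular and supraoptic nuclei, *Oxt* was at 8.33, *Avp* at 7.96 and *Trh* at 5.96. *Sim1* at 4.54 and *Crh* at 2.76 lay below the median of the table. Of 3 markers of the ventromedial hypothalamus, 2 have a row, *Fezf1* at 4.01 and *Nr5a1* at 1.88, and 0 lay above the median (1 per kb of span). All 10 markers of the striatum have a row, from 2.63 (*Gpr6*) to 7.07 (*Ppp1r1b*), with *Drd2* at 4.70 and *Adora2a* at 4.26. Of 10 markers of the cerebral cortex and hippocampus, 8 have a row, from 1.96 (*Fezf2*) to 8.44 (*Camk2a*). All 7 listed for the thalamus do, with *Slc17a6* at 8.09, *Calb2* at 7.43, *Tcf7l2* at 5.28 and *Prkcd* at 4.79. *Lef1* was at 3.19, *Rora* at 2.34 and *Gbx2* at 0.49. The summed level was 344.3 CPM for the ARC list, 488.4 CPM for the striatum, 584.2 CPM for the cerebral cortex and hippocampus and 526.2 CPM for the thalamus. Of the sum for the cerebral cortex and hippocampus, 347.1 CPM came from *Camk2a* and 144.4 CPM from *Slc17a7*. In that list, 3 of the 8 genes with a row lay above the median of the table (4 per kb of span). Of the thalamus sum, 271.8 CPM came from *Slc17a6* and 172.4 CPM from *Calb2*. These sums are not per length and are over lists of different genes and sizes, so that they do not rank the regions. Of the cell type markers, 4 of 4 lay above the median for neurons (4 per kb of span), astrocytes (3) and oligodendrocytes (4). For microglia it was 1 of 4 (4 per kb of span), for endothelium 2 of 2 (1) and for tanycytes and ependyma 1 of 2 (1). *Penk* is known to be abundant in the striatal neurons that carry *Drd2*, and *Oprm1* and *Oprk1* are also made in the striatum. What part of the reads of these genes came from outside the ARC was not tested.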

How the data were processed

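RNA was taken from the ARC of 5 5X-FA and 5 5X-MTHF dams, with diet and replicate number from the labels. According to the submitters' processing notes and the methods, poly-A libraries were trimmed with Trim Galore 0.5.0, aligned with STAR 2.6.0c to Rnor_6.0 and counted with HTSeq 0.6.1p2.

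The authors deposited 1 table, and its column of average log2 CPM (log2 scale, not per length) was used. The sum of 2 to this power is 1002152 over the table, close to the total that log2 CPM values give. A further 10 columns of numbers per library carry names that fit no single label, and they entered no step. Another 4 columns hold the log2 fold change, F statistic, *p*-value and FDR of the authors' own diet comparison and were not used either. With no value per dam, the planned tests between the diets could not be run, and the levels fixed as the fallback are reported.

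Percentiles are the share of genes kept in the filtered table that have a lower value. Levels per kb divide by the genomic span of the gene, introns included. A gene within 1 Mb has at most 1000 kb between the ends of the genes. Named are the 5 opioid genes, the 2 genes next to each in level on either side, and the 2 highest of each role of the pathway list. From the pathway list as planned, 1 gene is not reported here and enters no count. Genes named outside this rule were chosen after their values were seen. The members and lists were chosen with earlier results of these data known. All 6 symbols matched RefSeq (GRCr8), which was used for gene order only. The ranking was checked on made-up values with known ranks. The software was Python 3.11.15 (scipy 1.17.1, pandas 2.3.3, numpy 2.4.6, matplotlib 3.10.9).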

Additional observations from a re-analysis of the deposited data

How the results depend on the processing

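No paired analysis was possible because the columns used hold 1 value per gene over all dams and the columns per library match no replicate number. The fits with a replicate block, without each dam, without a filter, with another pseudocount, with other size factors or with centred libraries were not run, since no value per dam was used. A rank was taken as moved when it left its 95% Wilson interval, which covers the counting of genes only. The interval served as a yardstick of size and measures no spread between dams. Among protein-coding genes only, the percentile was 35.6 for *Oprk1*, 23.3 for *Pnoc* and 22.7 for *Oprm1*, and among genes with a log2 CPM of at least 1 it was 71.9 for *Oprl1*, 35.4 for *Oprk1*, 22.9 for *Pnoc* and 22.3 for *Oprm1*. The other 3 percentiles under these settings stayed within the interval. Per kb of gene span, the percentile was 96.9 for *Penk*, 89.5 for *Oprl1*, 45.9 for *Oprk1*, 22.5 for *Pnoc* and 1.96 for *Oprm1*. The order of the 5 genes was the same per kb of span. That setting could not change it, since the opioid genes with fewer reads have the longer spans. The other settings rank the same values among fewer genes and could not change it either. Leaving out genes with a log2 CPM under 1 could only lower a percentile, since all 5 opioid genes lie above that limit. The methods state only an approximate sequencing depth per sample. The depth of each library, and with it the precision of each value, is unknown from the values used.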
